A study of Mus musculus with 24 samples.

Results

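Genomic imprinting leaves some genes active from only the maternal or only the paternal chromosome, and 8 imprinted genes were followed here across pancreatic alpha and beta cells of the mouse. They were taken by name from the 14027 genes of the deposited table. Of the 9 names, Peg3, Meg3, Nnat, Plagl1, Grb10, Sgce, Impact and Cdkn1c were present, and Dlk1 was not analysed here. Alpha cells secrete glucagon and beta cells secrete insulin. Both were sorted from islets of a strain that the labels call a triple reporter mouse, without naming the reporter alleles, the age or the sex of the animals. Islets were isolated at zeitgeber time (ZT, hours of the lighting cycle) 0, 4, 8, 12, 16 and 20, with 2 libraries for each cell type and time, so that 12 alpha libraries stood against 12 beta libraries. Total RNA was sequenced after removal of ribosomal RNA. The libraries held 4944982 to 12364190 reads in the genes of the table, and levels are given as RPKM, which divides the reads of a gene by its length and by the depth of the library. The reads were not split by parental allele, so every level is the sum of both chromosomes.

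Imprinted genes often lie in clusters whose silent and active copies are told apart by DNA methylation inherited from the germ line. Many of them act on growth, cell division and metabolism, and several are known in islets. In mice, neuronatin (Nnat) helps the signal peptidase cut newly made insulin precursor in beta cells. Grb10 is an adaptor that binds the insulin and IGF1 receptors and damps their signal. Cdkn1c (p57Kip2) inhibits cyclin-dependent kinases, and overexpression of PLAGL1 is linked to transient neonatal diabetes in humans.

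The 8 genes did not move together between the cell types. Sgce, Grb10 and Cdkn1c were higher in alpha cells and Nnat was higher in beta cells, so that 4 of 8 differed by at least 2-fold at an adjusted p under 0.05 (limma, Benjamini-Hochberg over all genes). Of all genes, 20.7% passed the same thresholds, 11.2% higher in alpha cells and 9.54% higher in beta cells. Peg3 and Plagl1 differed by less than 2-fold at an adjusted p under 0.05, a threshold that 74.9% of all genes passed. Meg3 and Impact did not pass it in the main test. The median log2 difference (alpha minus beta) was 0.34 over the 8 genes and 0.01 over all genes. The ranges of the 12 alpha and the 12 beta libraries were apart for 3 of the 8 (Sgce, Grb10 and Nnat), as for 26% of all genes. Nothing in the labels tells whether both libraries of a group are from different animals. All p-values therefore measure only the spread between libraries, which may be technical. In sorted bulk cells, fewer expressing cells and less RNA per cell cannot be told apart.

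**Figure D1:**
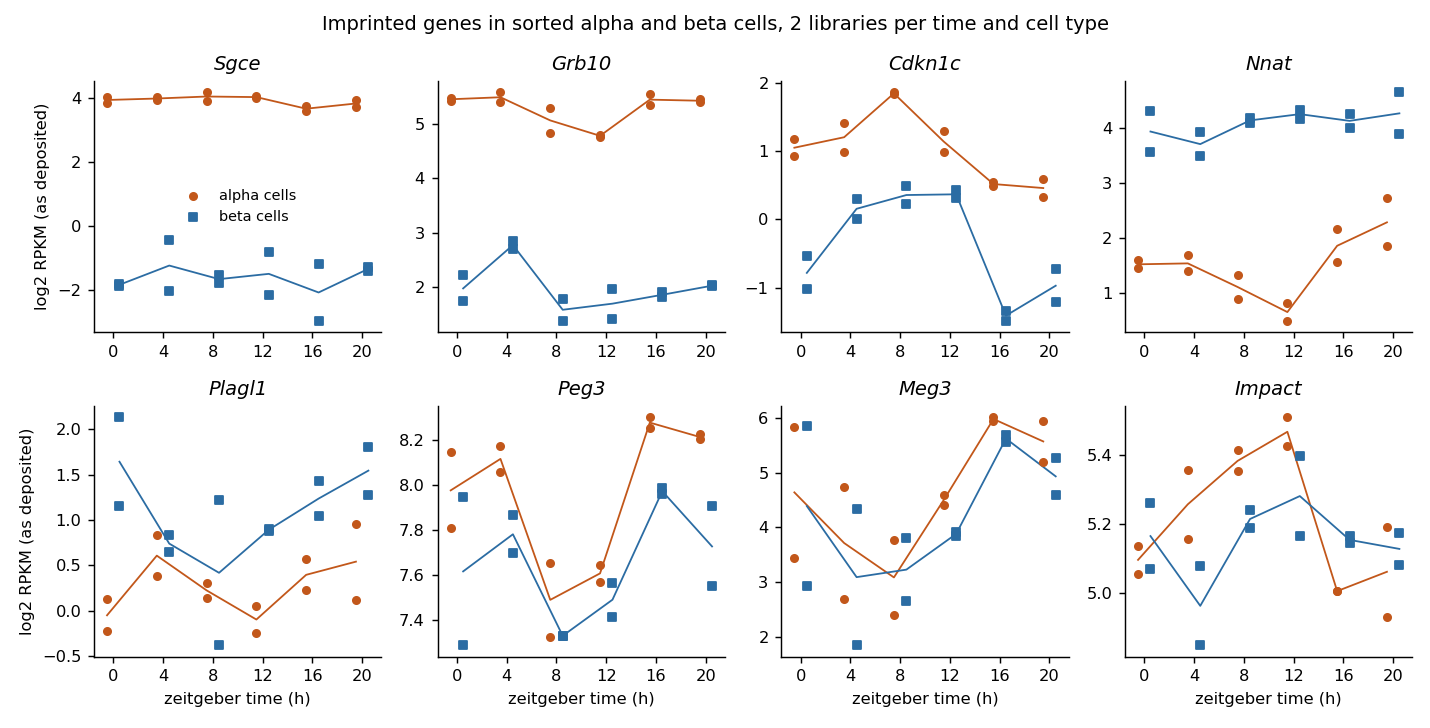
Level of the 8 imprinted genes (vertical axis, log2 RPKM as deposited, a separate scale per gene) against zeitgeber time in hours. Points are single libraries, with alpha cells as circles and beta cells as squares, and lines join the means of 2 libraries. Sgce and Grb10 lie higher in alpha cells at all 6 times and Nnat lies lower in them at all 6 times, while the Meg3 replicates of ZT0 and ZT4 lie far apart in both cell types.

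Within each cell type the genes covered a wide range of levels. In alpha cells the order of mean RPKM ran from Peg3 (252) over Grb10 (39.3), Impact (37.3), Meg3 (32.4), Sgce (15.1), Nnat (2.96) and Cdkn1c (2.07) to Plagl1 (1.22). Of the neighbours in that order, Peg3 was separated from Grb10 and Sgce from Nnat in all 12 libraries, and the other neighbours overlapped. In beta cells the order ran from Peg3 (204) over Impact (35.6), Meg3 (24.98), Nnat (17.0), Grb10 (4.13), Plagl1 (2.26) and Cdkn1c (0.763) to Sgce (0.295). There, Peg3 was separated from Impact and Nnat from Grb10, and the other neighbours overlapped. Grb10 thus had rank 2 in alpha cells and rank 5 in beta cells, and Nnat rank 6 in alpha cells and rank 4 in beta cells.

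The hormone genes were as the labels say: mean Ins2 in alpha cells was 0.670% of its mean in beta cells, and mean Gcg in beta cells was 0.229% of its mean in alpha cells. Replicate 1 of ZT4 held the most of the other hormone in both cell types, with Ins2 at 2.09% in the alpha library and Gcg at 1.52% in the beta library. Markers of other cells also moved with the cell type. The summed level of 3 of 3 PP cell markers was 27826 to 59540 RPKM in alpha libraries and 359 to 1730 RPKM in beta libraries, and that of 5 of 6 delta cell markers was 2513 to 5180 RPKM in alpha libraries and 645 to 1421 RPKM in beta libraries. The 6 measured stromal markers of 9 summed to 4.30 to 9.14 RPKM in alpha libraries and 0.517 to 1.65 RPKM in beta libraries. Col1a2 made up most of the alpha sum, with a mean of 4.41 RPKM, against 0.0856 RPKM in beta cells. The next highest in alpha cells, Dcn, averaged 0.916 RPKM there, against 0.347 RPKM in beta cells. The 2 glial markers of 5 summed to 0.852 to 3.87 RPKM in alpha libraries and 0.171 to 0.894 RPKM in beta libraries. Of 10 immediate early genes, which respond to handling and activity, 9 were called higher in alpha cells, where 11.2% of all genes were. Also called higher in alpha cells were 2 of 3 measured duct markers. The other duct marker, Krt7, was 1.68-fold higher in beta cells (limma adjusted p = 1.1e-12), below the fold threshold. Of 4 measured immune markers 1 was called, where 20.7% of all genes were. It was Cd79a, with 0.117 RPKM in alpha cells, against 1.59 RPKM in beta cells. None of the endothelial and acinar markers were called. Of the lists of other cells and immediate early genes, Sertm1, Col1a1, Col3a1, Cdh19, Muc1, Ptprc, Cd79a and Egr2 had 0 reads in some library. The part of these cells and genes in the differences below was not tested.

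Promoter windows from RefSeq (GRCm38.p6, 250 bases before to 50 after a gene start) matched 5 of the 8 genes: Peg3, Meg3, Nnat, Plagl1 and Grb10. Grb10 and Meg3 had 2 windows each, for different starts. Methylation in imprinted clusters falls on the C of CpG pairs, so the windows of the most abundant gene and of a gene called in each direction are shown 5′ to 3′ with each CpG in capitals.
Peg3 promoter, chr7:6730370-6730669, minus strand: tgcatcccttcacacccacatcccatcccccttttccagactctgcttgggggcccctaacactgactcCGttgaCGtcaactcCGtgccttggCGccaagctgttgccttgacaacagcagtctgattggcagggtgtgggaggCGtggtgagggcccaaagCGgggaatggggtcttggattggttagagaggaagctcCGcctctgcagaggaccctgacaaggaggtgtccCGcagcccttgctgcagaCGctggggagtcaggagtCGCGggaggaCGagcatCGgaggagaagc
Grb10 promoter, chr11:12037371-12037670, minus strand: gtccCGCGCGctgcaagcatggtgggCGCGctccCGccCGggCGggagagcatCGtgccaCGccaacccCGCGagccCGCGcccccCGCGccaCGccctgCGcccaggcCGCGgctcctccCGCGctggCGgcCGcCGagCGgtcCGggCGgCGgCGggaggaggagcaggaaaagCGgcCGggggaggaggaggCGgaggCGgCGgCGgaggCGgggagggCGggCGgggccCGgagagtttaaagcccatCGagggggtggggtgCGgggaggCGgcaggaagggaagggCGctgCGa
Nnat promoter, chr2:157559828-157560127, plus strand: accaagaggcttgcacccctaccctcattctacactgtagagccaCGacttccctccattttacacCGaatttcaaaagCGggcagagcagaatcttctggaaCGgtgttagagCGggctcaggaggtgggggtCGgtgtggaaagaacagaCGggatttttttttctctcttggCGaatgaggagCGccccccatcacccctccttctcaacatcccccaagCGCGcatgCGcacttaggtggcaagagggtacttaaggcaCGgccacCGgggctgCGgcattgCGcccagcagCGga
The Grb10 window shown held 45 CpG, more than 98.1% of the 32851 windows in the table, against a median of 7, while its other window held 9. The windows of Plagl1, Nnat and Peg3 held 26, 17 and 13 CpG, and those of Meg3 held 13 and 1. The level of a gene does not tell which start was used. Searched on both strands, TGCCGC, the core of the motif that ZFP57 binds when it is methylated, was in the windows of Nnat and Plagl1, in 1 of 2 of Grb10 (the one shown) and of Meg3, and in 11.6% of all windows. CACGTG, the E-box, was in the Plagl1 window and in 7.15% of all windows. AAGATGGC (a YY1 motif, 2.75% of all windows) and the GC box of Sp1 (7.01%) were in none of the 5. The annotated start of Usp29 falls within the Peg3 window, on the opposite strand. These matches are letters only, and methylation was not measured.

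Sgce encodes epsilon-sarcoglycan, a membrane protein related to the sarcoglycans of the dystrophin complex, and is expressed from the paternal copy. It lies on chromosome 6 from 4674350 to 4747207 on the minus strand (GENCODE annotation of GRCm38). Its level was 11.9 RPKM in the lowest, 15.2 in the median and 17.9 in the highest alpha library, against 0.0644, 0.252 and 0.676 RPKM in the beta libraries. The lowest alpha library was therefore far above the highest beta library. Sgce had a log2 difference of 5.53 (SE 0.19, limma adjusted p = 2.2e-17), a 46.1-fold higher level in alpha cells, and it lay between 5.17 and 5.78 at the 6 times. Alpha libraries held 261 to 615 Sgce reads, against only 2 to 22 in beta libraries. With log2(RPKM + 1), which compresses low levels, the difference was 3.64. The mean Sgce level in beta cells was 1.96% of that in alpha cells, and that of Gcg was 0.229%. The highest beta library was replicate 1 of ZT4, which also held the most Gcg.

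The gene beside Sgce was also far higher in alpha cells. Peg10, a gene derived from a retrotransposon and also expressed from the paternal copy, starts at -0.099 kb from the start of Sgce and points away from it. Its mean level was 12.1 ± 6.03 RPKM in alpha cells, against 0.157 ± 0.0953 RPKM in beta cells (SD, n = 12 each), 65.7-fold higher in alpha cells (limma adjusted p = 8.9e-19), from 204 to 1703 reads in alpha libraries and 3 to 25 reads in beta libraries. By time, Peg10 stood at 6.40 and 5.78 RPKM in the alpha libraries of ZT12 and at 23.1 and 22.1 RPKM in those of ZT16, whereas Sgce was at 16.4 and 15.98 RPKM at ZT12 and at 11.9 and 13.3 RPKM at ZT16. Neither was called rhythmic in alpha cells (limma adjusted p = 0.089 for Peg10 and 0.82 for Sgce), and the difference between their courses was not tested. Farther out, Asb4, an ankyrin repeat and SOCS box gene of the same imprinted cluster, averaged 4.63 RPKM in alpha cells, against 0.252 RPKM in beta cells (log2 difference 4.05), whereas Casd1 averaged 16.5 RPKM in alpha cells, against 15.7 RPKM in beta cells (limma adjusted p = 0.16). Ppp1r9a, at -156 kb, was 1.92-fold higher in alpha cells. Col1a2, a collagen gene at 242 kb in the annotation, is also on the stromal list. It averaged 4.41 RPKM in alpha cells, against 0.0856 RPKM in beta cells, 44.3-fold higher in alpha cells. The other type I collagen gene, Col1a1, a stromal marker, had 0.201 RPKM in alpha cells, against 0.0635 RPKM in beta cells, with 0 reads in some library.

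**Figure D2:**
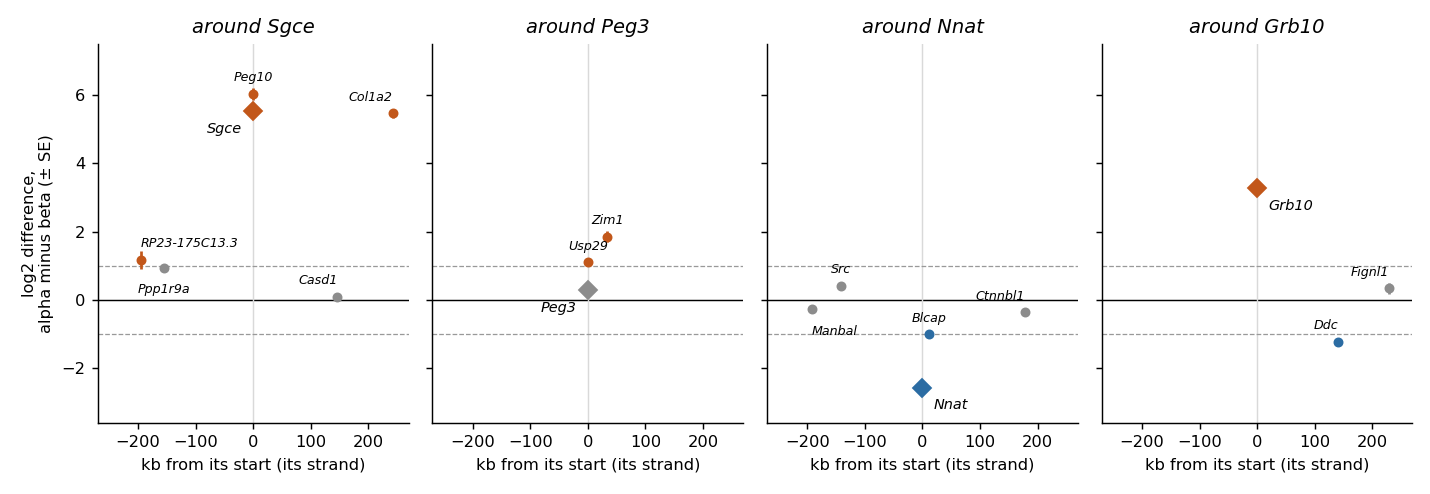
Log2 difference between alpha and beta cells (vertical axis, alpha minus beta, ± SE of the limma fit over 24 libraries) of 4 imprinted genes (diamonds) and of the measured genes within 250 kb (circles), against the distance of the gene starts in kb along the strand of the imprinted gene. Dashed lines mark a 2-fold difference, and colours mark genes called higher in alpha cells (orange), called higher in beta cells (blue) or not called (grey). Peg10 and Col1a2 stand at 6.04 and 5.47 beside Sgce, while Casd1 lies close to 0.

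Sgce was the only called gene in its direction among the sarcoglycan genes. Of 6 measured members of that complex, Sgce was higher in alpha cells and 2 (beside 9.54% of all genes) were higher in beta cells. These were Sgcz, with 0.0374 RPKM in alpha cells, against 1.70 RPKM in beta cells (log2 difference -4.72), and Sgcd, with 0.294 RPKM in alpha cells, against 1.12 RPKM in beta cells (log2 difference -1.90).

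Grb10 lies on chromosome 11 from 11930508 to 12038683 on the minus strand. It is expressed from the maternal copy in most tissues and from the paternal copy in neurons. Its level was 27.1, 42.0 and 47.5 RPKM in the lowest, median and highest alpha library, against 2.60, 3.82 and 7.16 RPKM in the beta libraries. The groups did not overlap. Its log2 difference was 3.28 (SE 0.09, limma adjusted p = 8.5e-19), which is 9.71-fold higher in alpha cells, with 2.71 at ZT4 as the smallest and 3.57 at ZT16 as the largest difference by time. The beta libraries of ZT4 were the highest of their cell type, with 6.498 and 7.16 RPKM, and the alpha libraries of ZT12 the lowest of theirs, with 27.1 and 27.7 RPKM. Even the lowest beta library held 245 Grb10 reads, and the mean beta level was 10.5% of the alpha level.

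Genes on either side of Grb10 differed in both directions. Ddc, which encodes the enzyme that makes dopamine and serotonin from their precursors and is imprinted in heart, averaged 37.2 RPKM in alpha cells, against 86.7 RPKM in beta cells, 2.34-fold higher in beta cells (limma adjusted p = 3.6e-14). Cobl, an actin nucleator farther out in the same region, averaged 4.25 RPKM in alpha cells, against 0.328 RPKM in beta cells (log2 difference 3.64). Of the 9 genes of the Grb7 family and its receptor partners, 2 were called higher in alpha cells, against 1 in beta cells. Besides Grb10 these were Irs2, an insulin receptor substrate, with 66.04 RPKM in alpha cells, against 29.0 RPKM in beta cells (log2 difference 1.18), and Igf1r, the IGF1 receptor, with 8.56 RPKM in alpha cells, against 28.8 RPKM in beta cells (log2 difference -1.70). Insr, the insulin receptor, had 10.4 RPKM in alpha cells, against 10.7 RPKM in beta cells (limma adjusted p = 0.41). The relatives Grb7 and Grb14 were 1.26-fold and 1.53-fold higher in alpha cells, below the fold threshold.

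Cdkn1c is expressed from the maternal copy and lies on chromosome 7 from 143458339 to 143461050 on the minus strand. Its level was 1.15, 1.88 and 3.52 RPKM in the lowest, median and highest alpha library, against 0.257, 0.747 and 1.30 RPKM in the beta libraries. The groups overlapped across times, but at each of the 6 times both alpha libraries were above both beta libraries. Cdkn1c had a log2 difference of 1.41 (SE 0.12, limma adjusted p = 4.6e-10), or 2.67-fold higher in alpha cells, and with log2(RPKM + 1) it was 0.79 and under 2-fold. These levels rest on 24 to 85 reads in alpha libraries and 5 to 26 reads in beta libraries. Cdkn1c was the only called gene of 6 measured CDK inhibitors, where 20.7% of all genes were called. Cdkn1b, its relative p27Kip1, had 27.6 RPKM in alpha cells, against 28.3 RPKM in beta cells (limma adjusted p = 0.39). Around Cdkn1c, Tnfrsf23, a decoy receptor gene, was 5.77-fold higher in beta cells and Cars, a tRNA synthetase gene, 2.26-fold higher in beta cells.

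Nnat was the only gene of the 8 called higher in beta cells. It lies on chromosome 2 from 157560078 to 157562522, is expressed from the paternal copy and encodes a small membrane protein of the endoplasmic reticulum. Its level was 1.31, 2.74 and 6.47 RPKM in the lowest, median and highest alpha library, against 11.1, 17.4 and 24.8 RPKM in the beta libraries. The highest alpha library, replicate 1 of ZT20, was still below the lowest beta library. Nnat had a log2 difference of -2.57 (SE 0.17, limma adjusted p = 4.3e-12), which is 5.94-fold higher in beta cells. In alpha cells the mean of Nnat was 17.4% of its beta mean, and that of Ins2 was 0.670%. The part of other cells in the alpha level of Nnat was not tested. Nnat lies within Blcap, which runs on the opposite strand and averaged 6.38 ± 0.388 RPKM in alpha cells, against 12.9 ± 0.838 RPKM in beta cells (SD, n = 12 each), 2.01-fold higher in beta cells. The library kit keeps the strand, but the strand setting of the counting is not given in the sources used here, so reads of one may count for the other. Of the 5 signal peptidase complex genes, partners of neuronatin, 4 were called higher in beta cells, as were 9.54% of all genes. The largest differences were those of Sec11c (13.6 RPKM in alpha cells, 48.2 RPKM in beta cells), Spcs3 (65.4 RPKM in alpha cells, 193 RPKM in beta cells) and Spcs2 (50.2 RPKM in alpha cells, 111 RPKM in beta cells), and Sec11a was 1.30-fold higher in beta cells.

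Plagl1 (also called Zac1) encodes a zinc finger transcription factor, is expressed from the paternal copy and lies on chromosome 10 from 13060504 to 13131694. Its level was 0.815, 1.11 and 1.92 RPKM in the lowest, median and highest alpha library, against 0.740, 2.11 and 4.36 RPKM in the beta libraries. The groups overlapped, and the lowest level of all stood in a beta library, replicate 1 of ZT8. Plagl1 had a log2 difference of -0.81 (SE 0.19, limma adjusted p = 5.6e-04), or 1.75-fold higher in beta cells, and the time means were lower in alpha cells at all 6 times. With log2(RPKM + 1) the difference was -0.52. The related genes Plag1 and Plagl2 were 1.99-fold and 1.39-fold higher in alpha cells, also below the fold threshold.

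Peg3, a zinc finger gene expressed from the paternal copy, was the most abundant of the 8 in both cell types. It lies on chromosome 7 from 6703892 to 6730431 on the minus strand. Its level was 160, 274 and 315 RPKM in the lowest, median and highest alpha library, against 156, 198 and 253 RPKM in the beta libraries. The ranges overlapped over most of their width. Peg3 had a log2 difference of 0.29 (SE 0.07, limma adjusted p = 9.5e-04), or 1.23-fold, and the time means were higher in alpha cells at all 6 times. The other measured genes of its cluster differed by more. Zim1, a zinc finger gene, averaged 28.5 ± 15.0 RPKM in alpha cells, against 7.29 ± 2.76 RPKM in beta cells (SD, n = 12 each), 3.61-fold higher in alpha cells. Usp29, which starts at -0.147 kb from the start of Peg3 and points away from it, averaged 5.64 ± 0.923 RPKM in alpha cells, against 2.60 ± 0.496 RPKM in beta cells, 2.14-fold higher in alpha cells.

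Impact encodes a protein that inhibits activation of the kinase Gcn2 and is expressed from the paternal copy in mice. It is annotated on chromosome 18 from 12955852 to 12992950. Its level was 30.5, 36.0 and 45.5 RPKM in the lowest, median and highest alpha library, against 28.7, 35.8 and 42.1 RPKM in the beta libraries. The groups overlapped almost fully. The log2 difference was 0.06 with a 95% interval of -0.05 to 0.18 (limma adjusted p = 0.33), which does not show that the levels are equal but bounds the difference well under 2-fold. With the 75th percentile of the libraries set equal, a scaling that raises the median difference of all genes to 0.13, it was 0.18 at an adjusted p of 0.0057. Higher in beta cells were 9.54% of all genes. Of the 8 measured genes of the Gcn2 pathway, 3 were called higher in beta cells. These were the stress-response genes Trib3 (0.211 RPKM in alpha cells, 3.56 RPKM in beta cells), Chac1 (2.37 RPKM in alpha cells, 17.9 RPKM in beta cells) and Asns (17.5 RPKM in alpha cells, 63.1 RPKM in beta cells). Eif2ak4, which encodes Gcn2 itself, was 1.48-fold higher in alpha cells.

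Meg3 is a long noncoding RNA expressed from the maternal copy of the Dlk1-Dio3 cluster, on chromosome 12 from 109541001 to 109571726. It varied more between libraries than any other of the 8, by 12.2-fold over alpha libraries and by 16.1-fold over beta libraries. Its level was 5.28, 25.4 and 64.4 RPKM in the lowest, median and highest alpha library, against 3.59, 17.7 and 57.8 RPKM in the beta libraries. The groups overlapped almost fully, and the log2 difference was 0.39 with a 95% interval of -0.37 to 1.15 (limma adjusted p = 0.34). This interval carries the wide spread between replicates described next. With the replicate number as a block, the same difference had an SE of 0.11 and a limma adjusted p of 0.0057. The labels do not say that equal numbers are pairs, so the block was kept out of the main tests.

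Replicates of Meg3 disagreed in the same way in both cell types at the first 3 times. At ZT0, replicates 1 and 2 had 10.8 and 57.1 RPKM in alpha cells, against 7.58 and 57.8 RPKM in beta cells. At ZT4 the order turned round, with 26.6 and 6.47 RPKM in alpha cells, against 20.2 and 3.59 RPKM in beta cells. At ZT8 replicate 1 was again the lower, with 5.28 and 13.7 RPKM in alpha cells, against 6.30 and 13.9 RPKM in beta cells. The replicates of ZT12 and ZT16 were close to each other in both cell types, and those of ZT20 differed in opposite directions. Malat1 and Neat1, 2 long noncoding RNAs of the nucleus chosen after their values were seen, are set beside it. The sign of the difference between replicates 1 and 2 was the same for Meg3 as for Malat1 in 10 of 12 groups, and as for Neat1 also in 10 of 12. Peg3 had the sign of Malat1 in 10 of 12 groups too, that of Meg3 in 10 and that of Neat1 in 8. The others of the 8 genes had the sign of Malat1 in 4 (Nnat) to 8 (Impact) of 12. The share of all genes with as many matching signs was not counted. At ZT0, replicates 1 and 2 had 1476 and 2640 RPKM of Malat1 in alpha cells, and 903 and 2207 RPKM in beta cells. The part of these RNAs, or of what moves with them, in the Meg3 values was not tested. The row of Mir1906-1 lies inside Meg3 and the row of Mir770 overlaps it on the same strand, and both may share its reads.

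**Figure D3:**
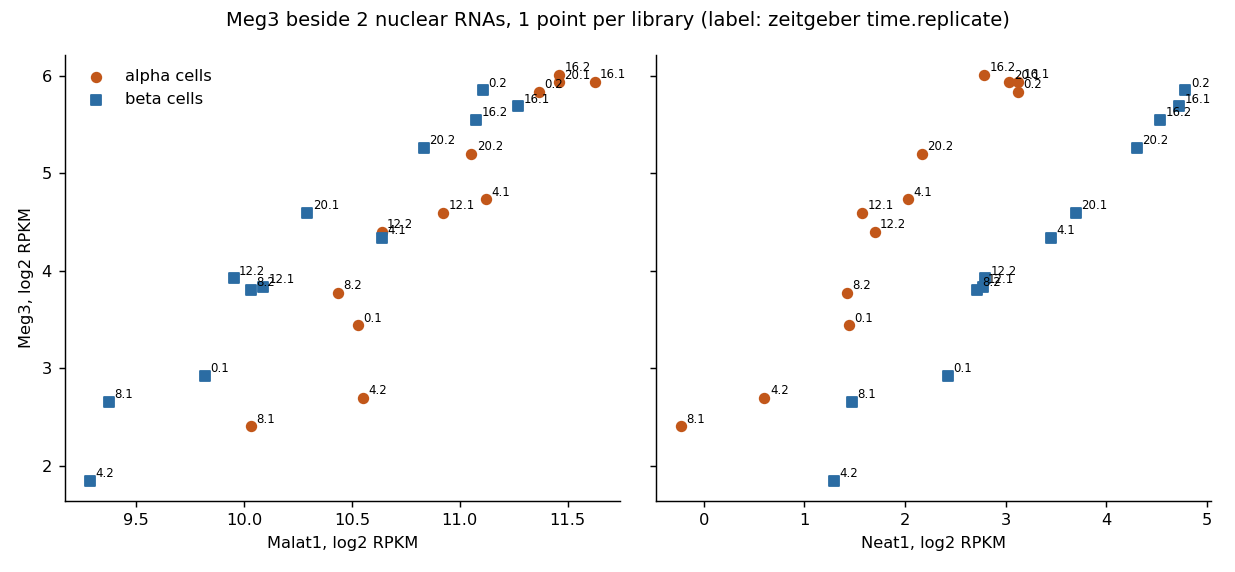
Meg3 (vertical axes, log2 RPKM) against Malat1 (left) and Neat1 (right, both log2 RPKM), with 1 point per library, alpha cells as circles and beta cells as squares, labelled by zeitgeber time and replicate. Within each cell type the libraries with little Meg3, such as replicate 1 of ZT8 in alpha cells and replicate 2 of ZT4 in beta cells, are also low in both other RNAs. At the same Meg3 level, Neat1 is lower in alpha cells.

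The time course asks which genes follow the day. A cosine with a period of 24 h was fitted per cell type over all 24 libraries, and its swing is the log2 difference between peak and trough. In alpha cells 4 of the 8 genes were called rhythmic (Cdkn1c, Nnat, Impact and Meg3), where 9.66% of all genes were. In beta cells 1 of 8 was (Cdkn1c), where 16% of all genes were. Single libraries moved these counts. The alpha count was 0 without alpha replicate 2 of ZT8, 1 without alpha replicate 1 of ZT8, either replicate of ZT12 or replicate 1 of ZT20, and 2 without either replicate of ZT16. The beta count was 4 without beta replicate 1 of ZT0, and 2 without beta replicate 2 of ZT0, replicate 1 of ZT4 or replicate 2 of ZT8 or without alpha replicate 1 of ZT0, replicate 2 of ZT4 or replicate 1 of ZT20.

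Cdkn1c was the one called in both cell types, as were 4.15% of all genes. In alpha cells it had 3.45 and 3.52 RPKM at ZT8, against 1.36 and 1.30 RPKM at ZT16. In beta cells it had 1.30 and 1.07 RPKM at ZT8, against 0.296 and 0.257 RPKM at ZT16. In each cell type both ZT8 libraries were thus well above both ZT16 libraries. The swing was 1.23 (SE 0.26, limma adjusted p = 0.015) in alpha cells and 1.80 (SE 0.26, limma adjusted p = 4.6e-04) in beta cells. The fitted peak fell at ZT6.9 (SE 0.81 h) in alpha cells and at ZT7.5 (SE 0.55 h) in beta cells. The beta call held in each of 33 alternative settings, with a swing of 0.83 (log2(RPKM + 1), which compresses these low levels) to 2.05. The alpha call was lost without replicate 1 of ZT8 in alpha cells (adjusted p = 0.071) and without replicate 2 of ZT8 in alpha cells (adjusted p = 0.052).

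Nnat was lowest at ZT12 in alpha cells, with 1.31 and 1.65 RPKM, and highest at ZT20, with 6.47 and 3.50 RPKM. Its fitted swing was 1.22 (SE 0.28, limma adjusted p = 0.026), with a peak at ZT21.0 (SE 0.89 h). In beta cells the same times had 17.9 and 19.97 RPKM at ZT12 and 24.8 and 14.6 RPKM at ZT20, and the swing of 0.44 was not called (limma adjusted p = 0.47). The alpha call was lost in limma-voom on whole reads (adjusted p = 0.075) and without alpha replicate 2 of ZT8 (0.059), replicate 1 of ZT12 (0.053), replicate 2 of ZT12 (0.054) or replicate 1 of ZT20 (0.10).

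Impact was highest at ZT12 in alpha cells, with 45.5 and 42.9 RPKM, and stood at 32.1 in both libraries of ZT16. The fitted alpha peak fell earlier than ZT12, at ZT8.6 (SE 0.96 h). The swing was small, 0.43 (SE 0.11, limma adjusted p = 0.037), or 1.34-fold. In beta cells it was 0.18 (limma adjusted p = 0.43). The alpha call was lost without any 1 of 8 alpha libraries (replicate 2 of ZT0, both of ZT8, both of ZT12, both of ZT16 and replicate 1 of ZT20), at adjusted p between 0.052 and 0.11.

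Meg3 had the largest swing, 2.74 (SE 0.73, limma adjusted p = 0.0496) with a peak at ZT18.2 in alpha cells, and 2.44 (SE 0.73, limma adjusted p = 0.062) with a peak at ZT18.1 in beta cells. The alpha call is at the threshold and was lost in 21 of 33 alternative settings. In 17 of them 1 library was left out (alpha replicate 2 of ZT4, or either replicate of ZT8, ZT12, ZT16 or ZT20 in either cell type), with adjusted p from 0.051 to 0.17. The beta libraries gained a call in 4 settings, among them without beta replicate 1 of ZT0 (adjusted p = 0.044), replicate 2 of ZT0 (0.032) or replicate 1 of ZT4 (0.035). The level at ZT16 was high in every library, at 61.4 and 64.4 RPKM in alpha cells, against 51.5 and 46.8 RPKM in beta cells. Malat1 was also high there, at 3158 and 2819 RPKM in alpha cells, against 2468 and 2157 RPKM in beta cells.

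The remaining genes were not called rhythmic. Plagl1 had a swing of 0.22 in alpha cells (limma adjusted p = 0.89), against 1.18 in beta cells (0.054), and the beta call was gained in 7 settings. Besides log2(RPKM + 1) and limma-voom, these left out alpha replicate 1 of ZT0 (adjusted p = 0.043), replicate 2 of ZT4 (0.049) or replicate 1 of ZT20 (0.049), or beta replicate 1 of ZT0 (0.048) or replicate 2 of ZT8 (0.025). Peg3 had a swing of 0.67 in alpha cells (limma adjusted p = 0.068) and 0.37 in beta cells, and the alpha call was gained without alpha replicate 1 of ZT0 (adjusted p = 0.031), alpha replicate 1 of ZT4 (0.042) or beta replicate 1 of ZT0 (0.045). Its time means were lowest at ZT8 and ZT12 and highest at ZT16 in both, with 305 and 315 RPKM at ZT16 in alpha cells and 253 and 249 RPKM in beta cells. The swing of Grb10 was 0.61 in alpha cells (limma adjusted p = 0.18), against 0.69 in beta cells (0.10), where it was called without beta replicate 1 of ZT0 (adjusted p = 0.026). That of Sgce was 0.31 in alpha cells (limma adjusted p = 0.82), against 0.34 in beta cells (0.78).

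No gene of the 8 was called for a difference of rhythm between the cell types. The lowest limma adjusted p was 0.45, for Nnat, and 0 of 8 were called by limma-voom either. Across all genes 10, or 0.0713%, were called. At an unadjusted p under 0.05, 2 of 8 stood out (Nnat, 0.014, and Impact, 0.047), where 7.66% of all genes did. The test of whether the difference between alpha and beta cells varied among the 6 times, with no assumed shape, also called 0 of 8 (limma, lowest adjusted p 0.63), and 0.0143% of all genes. At an unadjusted p under 0.05, 3 of 8 stood out (Nnat, 0.016, Cdkn1c, 0.024, and Grb10, 0.043), where 5.56% of all genes did. For Nnat the log2 difference ran from -3.59 at ZT12 to -1.98 at ZT20, and for Cdkn1c from 0.77 at ZT12 to 1.92 at ZT16.

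The wider set of imprinted genes gave a setting for the 8. Of 61 other imprinted genes listed, 38 were measured, and 14 were called higher in alpha cells, against 7 in beta cells, 55.3% of those measured beside the 20.7% of all genes. Their median log2 difference was -0.08. The list was chosen with earlier results of these data known, which limits what the share of 55.3% can show. Outside the Sgce, Peg3 and Grb10 clusters, the genes higher in alpha cells included Mest, a hydrolase-like gene (1.77 RPKM in alpha cells, 0.402 RPKM in beta cells), Gnas, which encodes the stimulatory G protein alpha subunit (245 RPKM in alpha cells, 67.5 RPKM in beta cells), Nap1l5, a nucleosome assembly protein gene (90.6 RPKM in alpha cells, 24.9 RPKM in beta cells), and Ndn, which encodes necdin (63.9 RPKM in alpha cells, 23.8 RPKM in beta cells). The genes higher in beta cells included Rasgrf1, a Ras exchange factor (0.610 RPKM in alpha cells, 13.5 RPKM in beta cells), Tssc4 (17.4 RPKM in alpha cells, 63.6 RPKM in beta cells) and Igf2, the insulin-like growth factor (0.0751 RPKM in alpha cells, 0.490 RPKM in beta cells). The Kcnq1 cluster of Cdkn1c was mixed. With Cdkn1c itself, it held 2 genes called higher in alpha cells and 3 called higher in beta cells among 6 measured. The Sgce-Peg10 cluster held 3 called higher in alpha cells among 5 measured, and the Peg3 cluster 2 among 3. In both of these, 0 were called higher in beta cells. Called rhythmic were 5 of the 38 in alpha cells, 15 in beta cells and 2 in both (Zrsr1 and Ddc), where 9.66%, 16% and 4.15% of all genes were. Zim1 and Mest, among the 5 called in alpha cells, peaked at ZT20.1 and ZT20.7 with swings of 1.76 and 1.58. Whether calls of these other imprinted genes hold without single libraries was not tested.

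**Figure D4:**
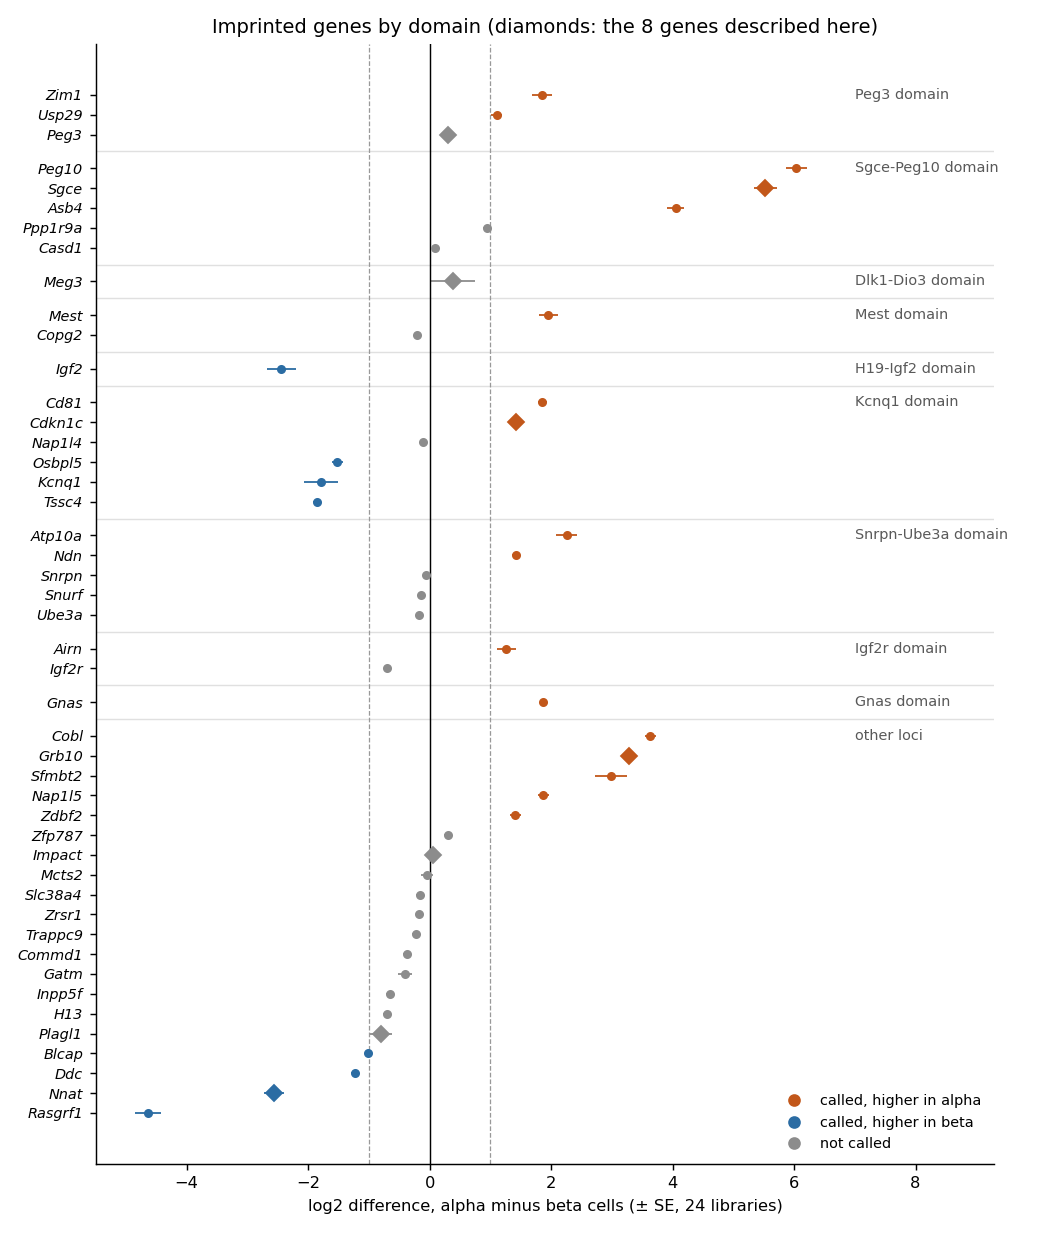
Log2 difference between alpha and beta cells (horizontal axis, alpha minus beta, ± SE of the limma fit over 24 libraries) of the 8 imprinted genes (diamonds) and the 38 other measured imprinted genes (circles), grouped by cluster. Dashed lines mark a 2-fold difference, and colours mark genes called higher in alpha cells (orange), called higher in beta cells (blue) or not called (grey). The Sgce-Peg10 cluster holds the largest differences towards alpha cells, and Rasgrf1 the largest towards beta cells.

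Other factors connected with the 8 genes differed as follows. Of 13 measured genes of imprint maintenance and DNA methylation, 1 was called, where 20.7% of all genes were. This was Tet1, a methylcytosine dioxygenase, with 3.67 RPKM in alpha cells, against 1.75 RPKM in beta cells. Dnmt1, the maintenance methyltransferase, had 11.3 RPKM in alpha cells, against 7.82 RPKM in beta cells, a 1.45-fold difference below the threshold. In the Notch pathway, to which the protein of Dlk1 belongs, 4 of 8 measured genes were called higher in alpha cells, against 2 in beta cells. The largest differences were those of the ligand Jag1 (2.96 RPKM in alpha cells, 0.394 RPKM in beta cells), the receptor Notch2 (2.50 RPKM in alpha cells, 0.423 RPKM in beta cells) and the ligand Jag2 (1.93 RPKM in alpha cells, 10.8 RPKM in beta cells).

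The closest profiles to a gene were those with the smallest root-mean-square difference of centred log2 values over the 24 libraries. They were Tial1 and Arid2 for Peg3 (0.129 and 0.137), Polr3b and Metap2 for Impact (0.101 and 0.115), Gata6 and Ptprd for Grb10 (0.285 and 0.306), Tmem132b and Cd44 for Nnat (0.292 and 0.336) and Hist3h2bb-ps and Lgi2 for Cdkn1c (0.336 and 0.3495). For Meg3 they were Sap25 and Fam193b (0.342 and 0.343), and for Plagl1 Slc17a9 and Ccdc167 (0.384 and 0.395). The measure is on the log2 scale and grows with the spread of a gene, which was 0.16 for Impact and 2.80 for Sgce (SD over 24 libraries). The 8 genes themselves were left out of the search.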

How the data were processed

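RNA was measured in sorted alpha and beta cells at 6 times with 2 libraries per group. Stranded total RNA libraries were made after removal of ribosomal RNA, per the labels' protocols. STAR, edgeR and mm10 are named in the submitters' processing notes, while no source used here gives the annotation, strand setting or gene filter. The deposited values were taken as log2 RPKM, as earlier work on these data describes them. Their steps show a prior count that averaged 2.0 per library, but do not show the division by gene length. These steps gave back whole reads for each of 14027 genes in 24 libraries (largest deviation from a whole number 6.8e-08). Mean RPKM values come from these reads with nothing added, and each SD over 12 libraries spans the 6 times. In no group did replicates match within sampling noise (chi-square per gene from 2.57 to 48.6). No library was left out.

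Tests were made on the deposited log2 values with limma 3.58.1 in R 4.3.3 (trend and robust), adjusted by Benjamini-Hochberg over all genes. Cell types were compared with time as a factor, with calls at an adjusted p under 0.05 and at least 2-fold. Rhythms were called by the F-test of the 2 terms of a 24 h cosine per cell type. Both cell types were fitted in the same model with a shared spread. Leaving out a library of one cell type can therefore move the adjusted p of the other. Alternatives were other pseudocounts, a filter on low values, other scalings, other variance models, limma-voom on recovered reads, a block by replicate number and leaving out libraries. The scripts were tested on simulated data.

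Of the identifiers 13802 matched GENCODE M21 (GRCm38), which gave the positions, counted from 1. Genes within 250 kb were taken as neighbours. The members and gene lists were chosen with earlier results of these data known. The rule for names took called genes of the imprinted lists (up to 3 in each direction per cluster) and of the partner lists (up to 3), up to 2 uncalled imprinted genes per cluster and the 2 closest profiles per gene (those of Sgce are not reported here); Malat1, Neat1, Col1a1, neighbours on the chromosome and uncalled partners were named after their values were seen. Counting error sets the precision of genes with few reads.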

Additional observations from a re-analysis of the deposited data

How the results depend on the processing

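Between the cell types, the 4 calls among the 8 genes held in all settings except that Cdkn1c fell below 2-fold with log2(RPKM + 1), at 0.79, and no direction reversed. All genes called numbered 2903, and 1602 (690 of them higher in alpha cells) with log2(RPKM + 1), 1755 (739) with only genes of mean log2 RPKM above 0, and 2872 to 2939 without 1 library. The share higher in alpha cells was 53.9%, and 43.1% and 42.1% in the first 2 of these. Rhythms moved more. Without 1 library, 348 to 2252 genes were called in alpha cells (1355 with all) and 1077 to 3100 in beta cells (2241 with all). The alpha count was 2252 without alpha replicate 1 of ZT4, 348 and 757 without replicates 1 and 2 of ZT8, 879 and 822 for ZT12, 676 and 619 for ZT16 and 726 without replicate 1 of ZT20. The beta count was 1269 without beta replicate 2 of ZT4, 1330 without replicate 1 of ZT8 and 1120 and 1077 for ZT16. Among the 8 genes, 0 to 5 were rhythmic in alpha cells (0 without alpha replicate 2 of ZT8) and 1 to 4 in beta cells (4 without beta replicate 1 of ZT0). By limma-voom there were 2 in alpha cells, against 2 in beta cells, where 2 were also found with log2(RPKM + 1) and without 3 libraries (ZT4 replicate 1 of both cell types and ZT8 replicate 2 of alpha cells). A difference of rhythm was called for 10 genes, 4 to 14 without 1 library (6 or fewer without either replicate of ZT12 or ZT16 in either cell type, of ZT20 in alpha cells or of ZT8 in beta cells, or alpha replicate 1 of ZT8) and 44 with log2(RPKM + 1). A difference by time was called for 2 genes, 1 to 6 without 1 library (6 and 4 without beta replicates 2 and 1 of ZT0), 29 with log2(RPKM + 1), 1 without trend and robust estimation and 0 without the 3 libraries. The cause of these shifts was not tested. Deviations of alpha and beta libraries with equal replicate numbers correlated at 0.65, 0.42, 0.34, 0.10 and 0.19 at ZT0, ZT4, ZT8, ZT12 and ZT16, but at 0.04 at ZT20. The labels do not say that a number marks a shared isolation, and since ZT20 showed no shared deviation the numbers were not used as pairs in the main tests. With the number as a block, a difference of rhythm was called for 174 genes and a difference by time for 34, none of them among the 8, and the Meg3 difference of 0.39 between the cell types had an SE of 0.11 and an adjusted p of 0.0057, against 0.36 and 0.34 without the block. Levels of Sgce in beta cells and of Cdkn1c rest on few reads, which limits their precision.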

Other observations

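Around the 8 genes, 26 other measured genes start within 250 kb, of which 5 were called higher in alpha cells, against 4 in beta cells, where 11.2% and 9.54% of all genes were. The 5 around Meg3 included none that was called, and AC152063.2, at 62.9 kb, had 55.4 ± 12.9 RPKM in alpha cells, against 49.3 ± 10.9 RPKM in beta cells (SD, n = 12 each). The sign of its difference between replicates 1 and 2 was that of Meg3 in 11 of 12 groups, while that of SNORD113, at 105 kb, was so in 4 of 12. Airn, an antisense RNA of the Igf2r cluster that silences its neighbours in mice, averaged 2.17 ± 0.906 RPKM in alpha cells, against 0.913 ± 0.449 RPKM in beta cells (SD, n = 12 each). At ZT0 its replicates 1 and 2 had 1.19 and 3.19 RPKM in alpha cells, against 0.594 and 1.63 RPKM in beta cells, and the sign was that of Meg3 in 10 of 12 groups. Zim1 had 16.2 and 38.6 RPKM in the same alpha libraries, against 5.01 and 12.9 RPKM in the same beta libraries, and its sign was that of Meg3 in 8 of 12 groups. The share of all genes with as many signs like Meg3 was not counted, and the part of a shared source in these values was not tested.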
